A study of Mus musculus with 8 samples.

Results

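Mamdc2 and Pcdh7 are 2 of the 19938 genes that could be named from a probe set of their own on these arrays. They were chosen by their mean change between conditions in these same arrays, as the genes that stood 1st and 3rd in the size of their increase in mouse MLL-AF9 cells labelled Runx1Cbfb-KO, so their change between conditions is described here and not tested. Each gene had 1 single-symbol probe set, 10466712 for Mamdc2 and 10521972 for Pcdh7, and each probe set gave 1 value on each of 8 Affymetrix arrays.

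Mamdc2 encodes mamcan, a secreted proteoglycan of the extracellular matrix built of MAM domains, folds that also occur in receptor phosphatases and neuropilins. In mouse brain it is a gene of microglia in models of neurodegeneration. Pcdh7 encodes a delta protocadherin, a transmembrane adhesion protein with cadherin repeats outside the cell and a cytoplasmic tail that binds protein phosphatase 1. It is also known to interact with SET, an inhibitor of protein phosphatase 2A. In mouse marrow cells Pcdh7 is known for a part in the fusion of osteoclast precursors, which are myeloid cells.

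The tested cultures were MLL-AF9 cells labelled Runx1Cbfb-KO, given 4-hydroxytamoxifen (4OHT) at 1 µM for 24 h, and the Control cultures were the same cells given ethanol for 24 h. Both derived from c-Kit(+) bone marrow in which Runx1 and Cbfb were both floxed, and both had been transduced with the leukaemia fusion MLL-AF9, which keeps myeloid progenitors growing in culture, and with CreERT2, a Cre recombinase that 4OHT activates, linked to a puromycin marker. All were grown in cytokine-enriched methylcellulose. Each condition had 4 arrays, from 2 clones with 2 biological replicates each, and a set is the pair of cultures with the same clone and replicate number. No culture received 4OHT without floxed alleles, so 4OHT, active Cre and gene loss cannot be told apart, and with 2 clones the spread describes these cultures and not further clones.

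The array medians ran from 6.26 to 6.39 on the log2 scale, a closeness that the authors' quantile normalization largely sets. The highest was that of the Runx1Cbfb-KO array of clone 2, replicate 2, against 6.29 in the Control array of its set. The deposited Runx1 signal went against the label. It averaged 10.82 ± 0.28 in the arrays labelled Runx1Cbfb-KO and 10.30 ± 0.30 in Control arrays (log2 level, SD, n = 4 each), higher in 4 of 4 sets. Cbfb averaged 9.75 ± 0.13 in the arrays labelled Runx1Cbfb-KO and 9.93 ± 0.08 in Control arrays (log2 level, SD, n = 4 each). It was lower in 4 of 4 sets, the direction of the label, in a difference that did not pass the test given below. A whole-transcript probe set averages exons, so these signals do not test the deletion, and every direction below follows the label; KO-labelled stands for labelled Runx1Cbfb-KO. The identity of the cultures was checked against 10 markers of myeloid progenitors and MLL-AF9 cultures, among them Kit, Mpo, Elane, Hoxa9 and Meis1. The mean log2 level of these markers was 10.78 to 11.43 in KO-labelled arrays and 10.85 to 11.44 in Control arrays. These means take in Cd34, whose log2 difference among Control arrays was -5.48, clone 1 minus clone 2, so the markers were not all alike in both clones.

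Mamdc2 was higher in the KO-labelled culture of every set. In clone 1 its log2 level was 8.98 and 8.77 in the KO-labelled arrays of replicates 1 and 2, against 7.72 and 7.58 in the Control arrays. In clone 2 it was 9.71 and 10.24 in the KO-labelled arrays, against 7.97 and 8.85 in the Control arrays. Within each clone the conditions did not overlap, which choosing the gene by its increase favours. With 2 arrays against 2 such a gap arises easily, and its share over all genes was not counted. Over both clones the conditions did overlap, because the Control array of clone 2, replicate 2 lay above the KO-labelled array of clone 1, replicate 2. The 4 KO-labelled arrays averaged 9.42 ± 0.67 and the 4 Control arrays 8.03 ± 0.57 (log2 level, SD).

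The difference of Mamdc2 between the cultures of a set was 1.26 and 1.19 in clone 1 and 1.74 and 1.38 in clone 2 on the log2 scale. These are 2.40-fold, 2.28-fold, 3.33-fold and 2.61-fold higher signals in the KO-labelled cultures. Their mean was 1.39 ± 0.24 (log2 difference, SD, n = 4 sets), or 2.63-fold, the highest mean increase of any named gene. The largest of the 4 differences, in clone 2, replicate 1, came with a Control level close to those of clone 1. The set with the highest Control level, clone 2, replicate 2, had the highest KO-labelled level as well.

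Pcdh7 had the same direction in all 4 sets. In clone 1 its log2 level was 7.17 and 7.18 in the KO-labelled arrays of replicates 1 and 2, against 6.23 and 6.34 in the Control arrays. In clone 2 it was 8.53 and 8.71 in the KO-labelled arrays, against 7.03 and 7.66 in the Control arrays. As with Mamdc2, the conditions were apart within each clone, which the choice of the gene again favours and 2 arrays against 2 make easy. The conditions overlapped between clones: the Control array of clone 2, replicate 2 lay above both KO-labelled arrays of clone 1. The 4 KO-labelled arrays averaged 7.90 ± 0.84 and the 4 Control arrays 6.82 ± 0.66 (log2 level, SD).

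The difference of Pcdh7 was 0.93 and 0.84 in clone 1 and 1.499 and 1.05 in clone 2 on the log2 scale, or 1.91-fold, 1.78-fold, 2.83-fold and 2.07-fold. The mean was 1.08 ± 0.29 (log2 difference, SD, n = 4 sets), or 2.11-fold. The Control array of clone 1, replicate 1 put Pcdh7 at -0.04 relative to the median of its own array, and the other 7 arrays put it above theirs. Mamdc2 was above the array median on all 8 arrays, by at least 1.32. Probe sets differ in how well they hybridise, so these positions do not rank the amounts of the 2 transcripts.

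**Figure D1:**
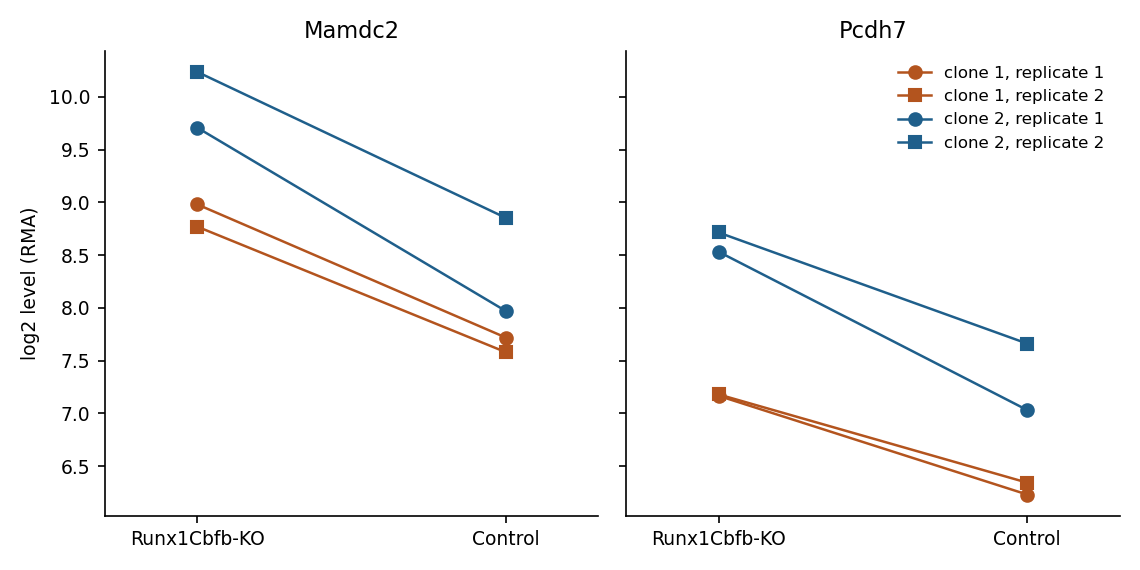
Log2 level (RMA) of Mamdc2 and Pcdh7 on the 8 arrays, with a line joining the KO-labelled and the Control culture of each set, coloured by clone and shaped by replicate. Every line is lower at its Control end, and for both genes clone 2 lies above clone 1 in each condition.

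The change from Control to KO-labelled was then compared between clones. This asks whether the clones respond by different amounts and does not use the mean change by which the genes were chosen, although genes whose sets disagreed were less likely to be chosen. The mean change of Mamdc2 was 1.23 in clone 1 and 1.56 in clone 2, 2.34-fold and 2.95-fold. The difference of these changes, clone 1 minus clone 2, was -0.33 ± 0.14 (log2, SE; 95% interval -0.63 to -0.04), with an unadjusted p of 0.0305 and an adjusted p of 1.00 over all genes in limma. For Pcdh7 the mean change was 0.89 in clone 1 and 1.28 in clone 2, and the difference was -0.39 ± 0.19 (log2, SE; 95% interval -0.79 to 0.01; limma adjusted p = 1.00). Neither passed, in a comparison that called 2 genes (0.01% of those tested), F13a1 and Ly6a2. The intervals reach to -0.63 for Mamdc2 and -0.79 for Pcdh7, so a like response in both clones is not shown. Without clone 2, replicate 1 the differences shrank to -0.16 for Mamdc2 and -0.17 for Pcdh7, and without clone 2, replicate 2 they were -0.51 and -0.61, none of them past the threshold.

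The levels themselves were compared between clones within each condition, a contrast not used to choose the genes. Pcdh7 was lower in clone 1. Among KO-labelled arrays it averaged 7.17 in clone 1 and 8.62 in clone 2, a log2 difference of -1.45 ± 0.18 (SE, n = 2 arrays per clone; limma adjusted p = 9.61e-04), or 2.73-fold lower in clone 1. Among Control arrays it averaged 6.29 in clone 1 and 7.35 in clone 2, a log2 difference of -1.06 ± 0.18 (SE, n = 2 arrays per clone; limma adjusted p = 0.00754), or 2.08-fold lower in clone 1. All arrays of clone 1 lay below all arrays of clone 2 in the same condition. With 2 arrays per clone such an order arises easily, and its share over all genes was not counted.

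Mamdc2 had the same order of clones with more spread between replicates. Among KO-labelled arrays it averaged 8.87 in clone 1 and 9.97 in clone 2, a log2 difference of -1.10 ± 0.25 (SE, n = 2 arrays per clone) that passed (limma adjusted p = 0.0299). Among Control arrays it averaged 7.65 in clone 1 and 8.41 in clone 2, and the log2 difference of -0.76 ± 0.25 (SE, n = 2 arrays per clone) did not pass (limma adjusted p = 0.171). That Mamdc2 passed in one condition and not in the other does not show a difference between conditions, since the test of that difference is the one given above, with an adjusted p of 1.00.

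**Figure D2:**
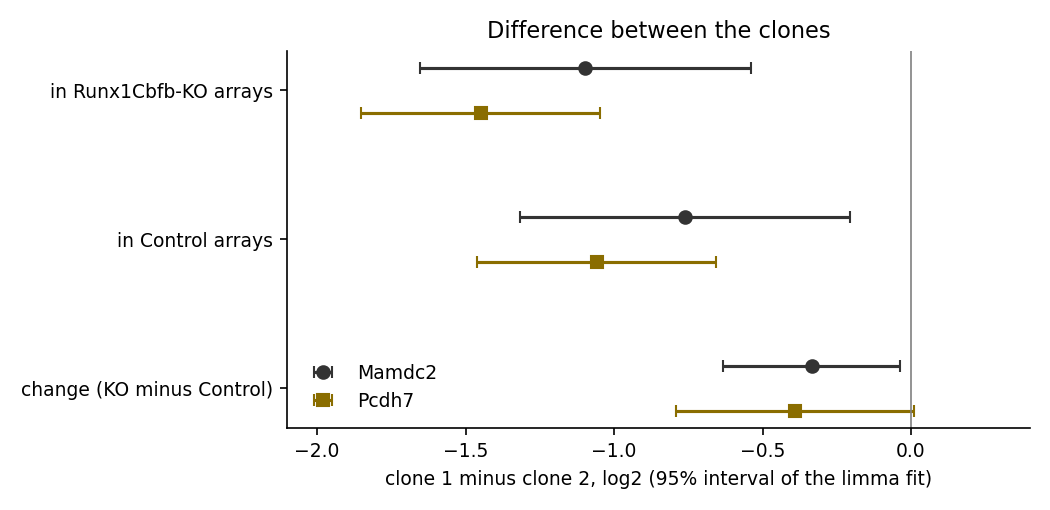
Difference between the clones, clone 1 minus clone 2 on the log2 scale, for the level of each gene among KO-labelled arrays, its level among Control arrays, and its change; bars are 95% intervals of the limma fit. All 6 values are below 0, and the interval of the change of Pcdh7 reaches past 0.

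Differences between the clones were common in these cultures: 1047 genes (5.25%) passed between clones among KO-labelled arrays and 792 (3.97%) among Control arrays. Between conditions, 96 genes (0.481%) were called higher in KO-labelled arrays, a count that holds Mamdc2 and Pcdh7 by choice, and 94 (0.471%) lower. Of the 96, 16 were also called lower in clone 1 among Control arrays, Pcdh7 among them and Mamdc2 not, against 320 (1.6%) of all genes tested. Of the same 96 genes, 20 were called higher in clone 1, against 472 (2.37%) of all genes, and of the 94 called lower in KO-labelled arrays, 16 were lower and 17 were higher in clone 1. Calls between conditions depended on the fit: in limma nothing passed with all 35556 probe sets tested (1834 probe sets at an unadjusted p under 0.05) or with no replicate block (317 genes at an unadjusted p under 0.05). Of the single genes called between conditions below, Extl3 (adjusted p = 0.0167) and Runx1 (adjusted p = 0.0259) alone also passed without the variance trend. Extl3 passed with clone as the only covariate as well (adjusted p = 0.00285). The p-values measure spread between cultures of these 2 clones.

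The clone calls depended on single arrays and settings. The KO-labelled difference of Pcdh7 passed in every alternative run. Its Control difference no longer passed without clone 1, replicate 1 (-1.003, adjusted p = 0.111), without clone 1, replicate 2 (-1.12, adjusted p = 0.0625) or with all 35556 probe sets tested (adjusted p = 0.0672). The KO-labelled difference of Mamdc2 no longer passed without clone 1, replicate 1 (adjusted p = 0.144), without clone 1, replicate 2 (adjusted p = 0.142), with array weights (adjusted p = 0.179), without the variance trend (adjusted p = 0.0631) or with all probe sets tested (adjusted p = 0.154). Its Control difference was -0.32 without clone 2, replicate 2 and -1.20 without clone 2, replicate 1, where it passed (adjusted p = 0.00322). The Control level of Mamdc2 in clone 2, replicate 2 was 0.88 above that in replicate 1, and that of Pcdh7 was 0.63 above.

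Marker levels of other cells differed between the clones too, in both directions, and their part in the clone differences of Mamdc2 and Pcdh7 was not tested. The mean log2 level of 9 macrophage markers among Control arrays was 6.29 to 6.30 in clone 1 and 6.51 to 6.53 in clone 2. Among these, Fcgr1, the high-affinity IgG receptor gene, was lower in clone 1 (-1.89 ± 0.12, log2, SE; limma adjusted p = 6.21e-06), as was Csf1r, the receptor gene for macrophage colony-stimulating factor (-0.70 ± 0.13; limma adjusted p = 0.0117), while Adgre1, a surface marker gene of mouse macrophages, was higher in clone 1 (1.23 ± 0.16; limma adjusted p = 0.00145), and the other 6 did not pass. For 6 megakaryocyte markers the mean was 5.71 to 5.72 in clone 1 and 5.92 to 5.94 in clone 2, and 1 of them passed, Gp9, a platelet glycoprotein gene that was lower in clone 1 (-0.70 ± 0.13; limma adjusted p = 0.0140). The means of 10 mast cell and basophil markers overlapped, at 5.997 to 6.01 in clone 1 and 5.86 to 5.999 in clone 2, and Ms4a2, a subunit gene of the IgE receptor, was higher in clone 1 (0.96 ± 0.17; limma adjusted p = 0.00866) while the other 9 did not pass. For the 10 progenitor and culture markers the mean was 10.85 to 10.94 in clone 1 and 11.43 to 11.44 in clone 2, a gap that came from 1 gene: Cd34, a surface marker gene of progenitors, was lower in clone 1 (-5.48 ± 0.17; limma adjusted p = 3.19e-08), and the other 9 did not pass, with differences from -0.21 for Kit to 0.27 for Itgam. The mean of 10 stromal markers was 5.52 to 5.56 in clone 1 and 5.70 to 5.79 in clone 2. Endothelial (6.01 to 6.03 against 6.04 to 6.12) and neural markers (5.05 to 5.08 against 5.11 to 5.15) were slightly lower in clone 1. Such small gaps are not particular to markers. Among 47 cadherin superfamily genes, read below, the mean was 5.59 to 5.61 in clone 1 and 5.63 to 5.65 in clone 2. For cell surface proteoglycans the order was opposite, at 6.31 to 6.33 and 6.25 to 6.28. Single endothelial markers went both ways: Pecam1 was higher in clone 1 (1.04 ± 0.13, limma adjusted p = 0.00101) and Tie1 lower (-0.95 ± 0.18, limma adjusted p = 0.0135). No other marker of these 3 lists passed.

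Mamdc2 and Pcdh7 varied together beyond the change between conditions. Both ranked the KO-labelled arrays of clone 2 highest, replicate 2 above replicate 1, and both ranked the Control arrays of clone 1 lowest, with the Control array of clone 2, replicate 1 next above them. Pearson's r between their log2 levels was 0.95 over the 8 arrays, and 0.95 again after each condition's mean was removed, which takes away the difference the genes were chosen for. The 8 arrays come from 4 sets in 2 clones, so these are far fewer than 8 independent points, and r is given as a description only.

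**Figure D3:**
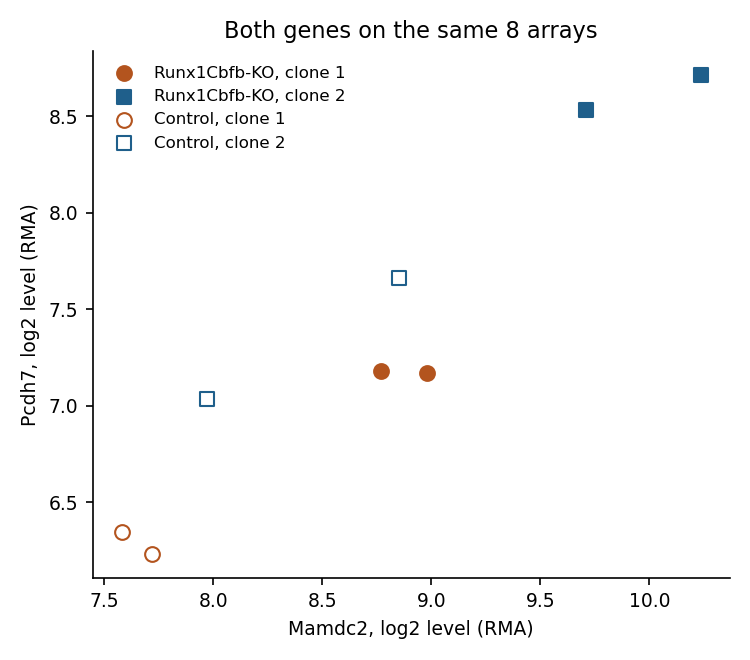
Log2 level of Pcdh7 against that of Mamdc2 on the same 8 arrays; filled symbols are KO-labelled, open symbols are Control, and shape and colour give the clone. The KO-labelled arrays of clone 2 sit at the top right, the Control arrays of clone 1 at the bottom left, and the Control array of clone 2, replicate 2 beside the KO-labelled arrays of clone 1.

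The genes most like each of them were ranked by r of log2 level over the 8 arrays, among genes with an SD of at least 0.2 (3147 compared with each). For Mamdc2 the 5 highest were Slc18a1, a vesicular monoamine transporter gene (r = 0.98), Runx1 (0.98), Hs6st1, a heparan sulfate 6-O-sulfotransferase gene (0.97), the anion exchanger gene Slc26a6 (0.97) and Hdc, the histamine-synthesising enzyme gene (0.96), with Pcdh7 7th. For Pcdh7 they were Hs6st1 (0.98), the zinc transporter gene Slc39a2 (0.97), Tmem236 (0.97), the adaptor gene Grap (0.97) and Extl3, a glycosyltransferase gene of heparan sulfate synthesis (0.96), with Mamdc2 13th. Such a ranking favours genes that are higher in KO-labelled arrays. Of these genes, Runx1 rose by 0.52 ± 0.04 (log2, SE, n = 4 sets, limma adjusted p = 1.64e-05). Slc18a1 rose by 0.55 ± 0.07 (log2, SE, n = 4 sets, limma adjusted p = 0.00154), Slc26a6 by 0.60 ± 0.08 (limma adjusted p = 0.00334) and Hdc by 0.63 ± 0.06 (limma adjusted p = 5.47e-04). Extl3 rose by 1.04 ± 0.09 (limma adjusted p = 1.57e-04) and Hs6st1 by 0.32 ± 0.07 (limma adjusted p = 0.0456). Without the variance trend the calls of Slc18a1 (adjusted p = 0.0598), Slc26a6 (0.0756), Hdc (0.0504) and Hs6st1 (0.0998) ended. With all probe sets tested so did those of Runx1 (adjusted p = 0.0567), Extl3 (0.125) and these 4 (0.190 to 0.337). Hs6st1 also lost its call without any one of 3 sets (adjusted p = 0.0714 to 0.310), with robust moderation (0.0501), with centred arrays (0.143) and with clone and replicate number as covariates (0.111). Slc39a2 (0.40 ± 0.09, adjusted p = 0.0543), Tmem236 (0.29) and Grap (0.28) did not pass, although Slc39a2 did with quantile normalization (adjusted p = 0.0410), and both Slc39a2 and Grap did with array weights (0.0407 and 0.0264) and without clone 2, replicate 2 (0.0207 and 0.0414).

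Runx1 signal followed both genes. Its r with Mamdc2 was 0.98 in level and 0.96 with condition means removed, and with Pcdh7 it was 0.96 and 0.93. Cbfb ran the other way, with r of -0.94 against Mamdc2 and -0.95 against Pcdh7 in level, and -0.89 and -0.92 with condition means removed. Between conditions Cbfb did not pass (-0.18 ± 0.05, log2, SE, limma adjusted p = 0.128). Runx1 was 0.39 higher in the Control array of clone 2, replicate 2 than in that of replicate 1, the same array in which Mamdc2 and Pcdh7 were high. With condition means removed, an r like that of Runx1 with Pcdh7 was common: Mamdc2, at 0.95, stood 172nd of the 3147 genes compared.

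With condition means removed, other genes came first. For Mamdc2 they were Glp1r, the receptor gene for glucagon-like peptide 1 (r above 0.99), Dusp6, a phosphatase gene of the ERK pathway (0.98), the Rac exchange factor gene Prex1 (0.98), Thy1 (0.98) and the phospholipase gene Plcg1 (0.98), with Pcdh7 40th. For Pcdh7 they were the scavenger receptor gene Lrp1, Klrg2, Dock9, an exchange factor gene of CDC42, the phosphatase gene Dusp5 and Csf1r (all above 0.99), with Mamdc2 172nd. All 10 had lower means in clone 1 than in clone 2 among Control arrays, with log2 differences from -0.36 (Prex1) to -1.63 (Dock9), an order that the way they were picked largely fixes, since both Mamdc2 and Pcdh7 are lower in clone 1. Of the 10, only Plcg1 passed between conditions (0.43 ± 0.07, limma adjusted p = 0.0112). Its call ended with all probe sets tested (adjusted p = 0.208), with clone and replicate number as covariates (0.248), when the variance trend was dropped (0.0504), and without either clone 1, replicate 2 (0.0897) or clone 2, replicate 1 (0.0796).

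Genes related to Mamdc2 and Pcdh7 by structure or partnership were read next. Levels in some of these lists were low, as given below, which limits what a lack of calls shows. Of the 145 measured genes in 7 lists of related genes, leaving out Mamdc2 and Pcdh7 themselves, none was called higher and 1 was called lower (0.69% called, against 0.953% of all 19938 genes tested), and their median log2 change was 0.01 against 0.00 over all genes.

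Delta protocadherins are the closest relatives of Pcdh7. All 9 others were measured (Pcdh1, Pcdh8, Pcdh9, Pcdh10, Pcdh11x, Pcdh17, Pcdh18, Pcdh19 and Pcdh20), and none passed: their log2 changes ran from -0.22 for Pcdh11x (limma adjusted p = 0.623) to 0.13 for Pcdh9, with a median of 0.01, and 5 of 9 were above 0. Among 47 other members of the cadherin superfamily none passed, with changes from -0.14 for Pcdh15 to 0.12 for Clstn1. Mean Control levels (log2) of the 9 ran from 4.64 for Pcdh20 to 6.35 for Pcdh17. Those of the 47 ran from 3.74 for Cdh19 to 8.20 for Celsr3 and averaged 5.62. The medians of the Control arrays were 6.26 to 6.30. Without detection calls, no response in the low genes cannot be told from signal too low to show one.

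Among genes that act with cadherins or with the Pcdh7 tail none passed either. Of 11 genes of the SET, ANP32 and phosphatase group, the smallest p was that of Anp32a, an inhibitor of protein phosphatase 2A (0.05 ± 0.03, limma adjusted p = 1.00). Set stood at 0.12 ± 0.12 and Ppp1ca, the alpha catalytic subunit of protein phosphatase 1, at -0.01 ± 0.03 (log2 change, SE). Of 10 catenins and cadherin adaptors, Jup, which encodes plakoglobin, had the smallest p (0.27 ± 0.07, higher in 4 of 4 sets, limma adjusted p = 0.157), followed by the vinculin gene Vcl (-0.24 ± 0.07, limma adjusted p = 0.219). Of these 10, 2 passed without clone 1, replicate 1 and 1 with array weights.

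For the relatives of Mamdc2 the result was alike. None of 16 other MAM domain genes passed, with changes from -0.17 to 0.10, the first for Ptprk, a receptor phosphatase gene that also has the smallest p (limma adjusted p = 1.00). Ptprk and the neuropilin gene Nrp2 did differ between clones among Control arrays, Ptprk being lower in clone 1 (-3.57 ± 0.20, limma adjusted p = 1.94e-06) and Nrp2 higher (1.85 ± 0.12, limma adjusted p = 8.36e-06). None of 37 other matrix and secreted proteoglycan genes passed, with changes from -0.14 to 0.14. Serglycin, the granule proteoglycan of blood cells, has the smallest p of that list (Srgn, -0.05 ± 0.02, limma adjusted p = 0.804). With Mamdc2 counted, the mean Control level (log2) was 5.76 for the MAM domain genes and 5.78 for the matrix and secreted proteoglycans. Both lie below the Control array medians of 6.26 to 6.30, so the limit given for low protocadherins holds here too. Single genes were higher, such as Srgn at 13.16 and Nrp2 at 7.56.

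Of 15 cell surface proteoglycan genes, 1 fell, where 0.471% of all genes tested were called lower, and 14 did not pass. The one was Tgfbr3, which encodes betaglycan, a co-receptor for TGF-beta. Its log2 level averaged 7.74 in KO-labelled arrays and 8.13 in Control arrays, a difference of -0.40 ± 0.07 (SE, n = 4 sets; limma adjusted p = 0.0210), lower in 4 of 4 sets. The call ended with all probe sets tested (adjusted p = 0.324), with clone and replicate number as covariates (0.211), when the variance trend was dropped (0.111), and without either clone 1, replicate 2 (0.302) or clone 2, replicate 1 (0.0990). Tgfbr3 was higher in clone 1 among Control arrays (1.65 ± 0.18, limma adjusted p = 3.67e-04), the opposite order of clones from Pcdh7.

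**Figure D4:**
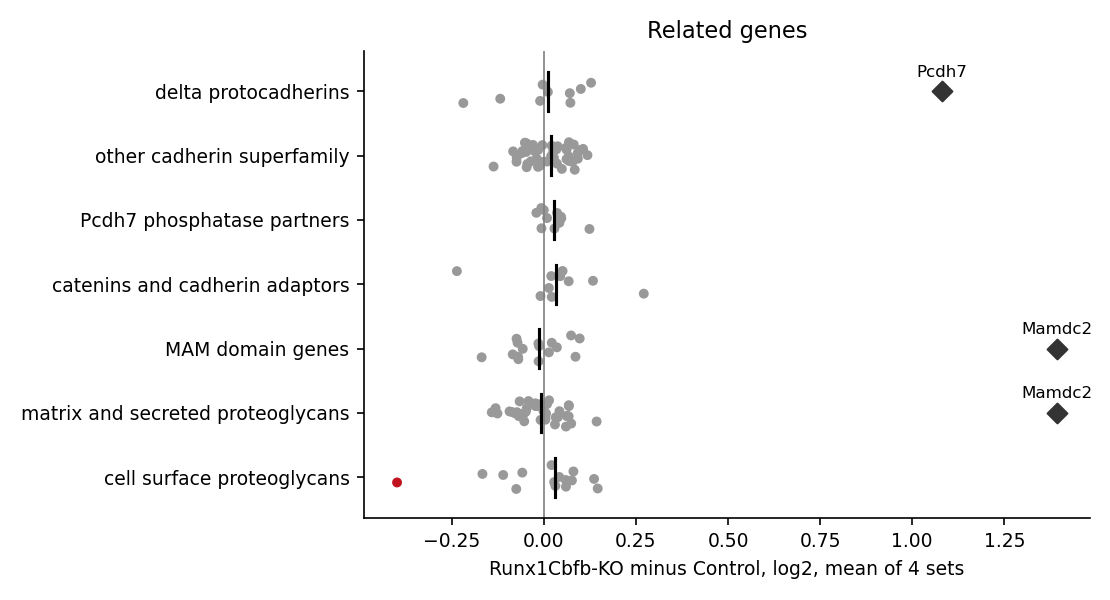
Log2 change, KO-labelled minus Control (mean of 4 sets), of each measured gene in 7 lists of related genes; black bars are list medians without Mamdc2 and Pcdh7, diamonds are Mamdc2 and Pcdh7, and red marks a gene past the limma threshold. Tgfbr3 is the single red point, and all other relatives lie between -0.24 and 0.27.

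Cell types that could bring matrix or adhesion genes into a marrow culture were followed by markers, listed because Mamdc2 and Pcdh7 are known from other tissues. None of 10 stromal and fibroblast, 10 endothelial and 10 neural and neuroendocrine markers passed between conditions, where 0.953% of all genes were called. The mean log2 level of the stromal markers was 5.46 to 5.83 in KO-labelled arrays and 5.52 to 5.79 in Control arrays, that of the endothelial markers 5.94 to 6.11 in KO-labelled and 6.01 to 6.12 in Control arrays, and that of the neural markers 5.02 to 5.24 in KO-labelled and 5.05 to 5.15 in Control arrays. The smallest p in each list was that of Thy1 (-0.16), Pecam1 (-0.20) and Nefm (-0.08). Array values have no true zero, so absence of a cell type cannot be read from them.

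Of 9 macrophage and 6 megakaryocyte markers none passed, where 0.953% of all genes were called. Adgre1 (0.28 ± 0.09, limma adjusted p = 0.339) and Gp9 (0.23 ± 0.09, limma adjusted p = 0.654) had the smallest p. In other runs 1 macrophage marker passed with array weights and 1 without clone 2, replicate 2. The mean log2 levels were 6.26 to 6.57 in KO-labelled and 6.29 to 6.53 in Control arrays for macrophage markers, and 5.72 to 6.12 in KO-labelled and 5.71 to 5.94 in Control arrays for megakaryocyte markers. Of 10 mast cell and basophil markers Hdc rose, as given above, where 0.481% of all genes were called higher, and the other 9 did not pass. The list did not rise as a whole: 5 of the 10 changed upward, and the median log2 change was -0.004. Mcpt8, with the next smallest p, was lower in 4 of 4 sets (-0.24 ± 0.07, limma adjusted p = 0.177). With array weights 2 of the 10 passed. Of the 10 progenitor and culture markers 3 fell, where 0.471% of all genes were called lower: Kit, the stem cell factor receptor gene (-0.36 ± 0.05, limma adjusted p = 0.00404), the neutrophil protease gene Prtn3 (-0.15 ± 0.03, limma adjusted p = 0.0267) and Itgam, which encodes CD11b (-0.29 ± 0.06, limma adjusted p = 0.0316). The calls of Prtn3 and Itgam ended without clone 1, replicate 1 (adjusted p = 0.0877 and 0.0863), without clone 1, replicate 2 (0.0603 and 0.279) and with arrays centred on their medians (0.1496 and 0.105). Without the variance trend none of the 3 passed (adjusted p = 0.115 for Kit, 0.721 for Prtn3 and 0.259 for Itgam), nor with all probe sets tested (0.220, 0.416 and 0.413) or with clone as the only covariate (0.288 for Kit), and with clone and replicate number as covariates Prtn3 (0.651) and Itgam (0.914) did not pass. In bulk RNA, more cells that express Mamdc2 or Pcdh7 and more RNA per cell cannot be told apart.

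Mamdc2 lies on mouse chromosome 19 and Pcdh7 on chromosome 5, in the RefSeq gene order of GRCm38.p6. For each, the 5 nearest genes on either side with a probe set of their own were read. With 0.953% of all genes called between conditions, 10 neighbours are too few for a lack of calls to set them apart. None of the 10 around Mamdc2 passed, with log2 changes from -0.20 to 0.10 and a median of 0.02. The nearest were Smc5, a subunit gene of the SMC5/6 complex (0.05 ± 0.05), and 1700028P14Rik (0.03 ± 0.05), and the lowest was Pip5k1b, a phosphoinositide kinase gene (-0.20 ± 0.06, limma adjusted p = 0.206). None of the 10 around Pcdh7 passed, with changes from -0.05 to 0.12 and a median of 0.00. The nearest were the long noncoding RNA gene Gm10440 (-0.01 ± 0.08) and G6pd2 (-0.05 ± 0.04), a glucose-6-phosphate dehydrogenase gene with a close paralog that can share probes. Rbpj, the DNA-binding factor of Notch signalling, was the fifth gene on one side of Pcdh7 and stood at 0.02 ± 0.04.

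**Figure D5:**
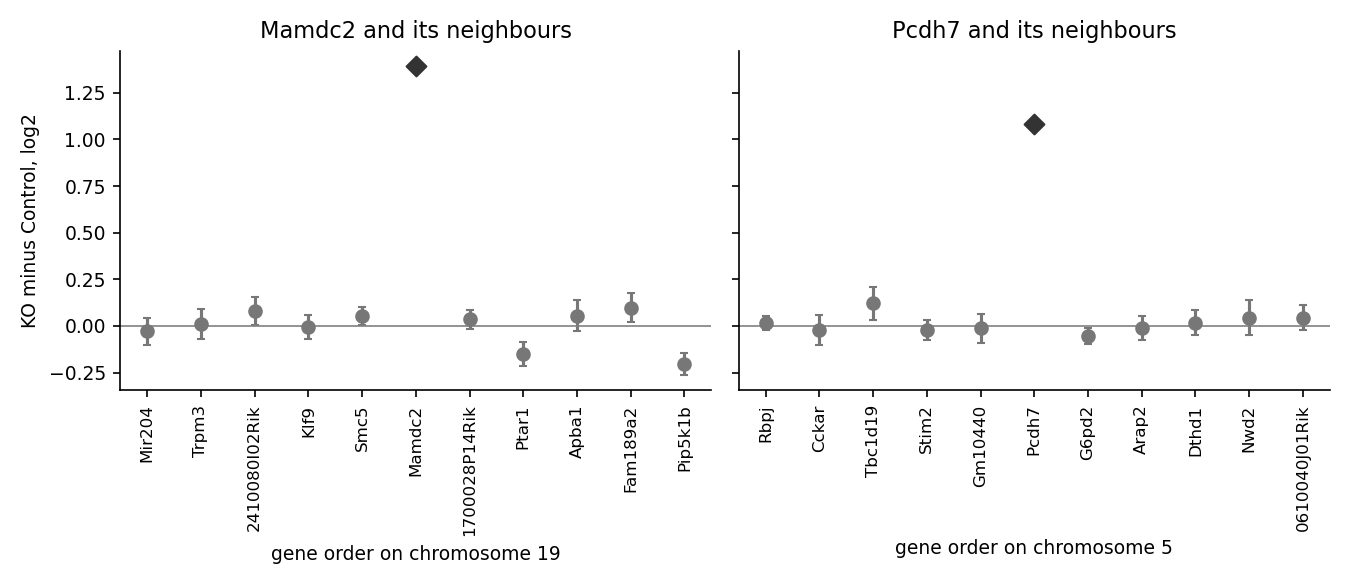
Log2 change, KO-labelled minus Control, of Mamdc2 (left) and Pcdh7 (right), drawn as diamonds with no error bar, and of the 5 measured genes on each side in gene order; bars are the SE of the limma fit. The neighbours lie between -0.20 and 0.12, and the diamonds at 1.39 and 1.08.

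RUNX proteins bind DNA with CBFB at the core motif TGTGGT or TGCGGT, so the start of Pcdh7 was searched for both, on both strands. The window was the 250 bases before the start site in the RefSeq promoter table, chr5:57717831-57718080 on the + strand of GRCm38.p6, where RefSeq also places the long noncoding RNA gene 4932441J04Rik. The sequence is shown because it is the window searched, and capitals mark its longest unbroken run of A and G.
Pcdh7: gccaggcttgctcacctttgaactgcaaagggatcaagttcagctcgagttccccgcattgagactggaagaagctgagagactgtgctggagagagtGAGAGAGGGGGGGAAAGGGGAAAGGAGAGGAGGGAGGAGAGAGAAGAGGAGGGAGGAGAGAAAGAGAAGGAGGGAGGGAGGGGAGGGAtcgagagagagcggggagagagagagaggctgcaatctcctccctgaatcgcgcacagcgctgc

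Neither motif was found in this window, while 18.6% of the 32851 RefSeq promoter windows of the same length held at least 1. That says only that these letters are not in these 250 bases. The run of A and G, picked out after the sequence was read, is 88 bases long (bases 99 to 186), and 0.0335% of the windows have one as long. Purines make up 72.8% of the window.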

How the data were processed

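The deposited table holds 1 log2 expression level per probe set and array, made by the authors with RMA (background correction, quantile normalization between arrays and median-polish summary), per the submitters' processing notes; the log base was read from the values, and no source used here gives the version of RMA or the chip definition. Labelled cDNA was made from 300 ng of total RNA, per the labels' protocols. Of 35556 probe sets, 21789 had 1 symbol in the platform annotation, 1621 had several and 12146 were not listed and stayed unnamed. The probe set with the highest mean stood for each of 19938 genes. No filter on low values was applied; both genes were above the array median on at least 1 array.

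Fits used limma 3.58.1 in R 4.3.3 with a variance trend, two-sided p-values and the Benjamini-Hochberg method across all 19938 genes, at a threshold of 0.05. Conditions were compared, and the change was compared between clones, with the set as a block. Clones were compared within a condition in a fit of clone by condition without that block. This clone fit counts the 2 arrays of a set as independent, so its p-values may be too small. Within every set both arrays deviated together from their condition means (r between 0.72 and 0.82, and 0.44 and 0.25 after clone means were removed), and the series' design text describes 4 sets. The fits were tested on simulated data, where they recovered nearly all changed genes. The planted changes were far larger than most changes here, whose median absolute log2 size was 0.04. Simulated noise was independent between arrays, with no set or clone effect, so this recovery says little about smaller changes or the real spread. Outside the clone fit among KO-labelled arrays, unchanged genes made up more of the calls than the threshold sets, most so between conditions. The 2 genes, the 14 lists, the tests and the naming rule (up to 4 called members per list, by smallest p, or 1 where none was called; 5 genes per measure of likeness; 5 neighbours a side) were chosen with earlier results of these data known. Sequence came from RefSeq for GRCm38.p6; Mamdc2 is named only. The alternatives tried are given in the closing section.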

Additional observations from a re-analysis of the deposited data

How the results depend on the processing

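The mean log2 changes of Mamdc2 and Pcdh7 moved by less than the SD of their set differences in all alternatives run: leaving out 1 set gave 1.28 to 1.46 for Mamdc2 and 0.94 to 1.16 for Pcdh7. Between conditions 190 genes passed, and 5 of 206 list genes. These counts were 13 and 0 without the variance trend, 0 and 0 with all probe sets tested (1834 probe sets at an unadjusted p under 0.05), 388 and 8 with array weights, 0 and 0 with no replicate block (317 genes unadjusted), 23 and 0 with clone as the only covariate, and 78 and 2 with clone and replicate number as covariates. Leaving out 1 set gave 98 to 418 genes and 2 to 6 list genes, and centring arrays left 3 list genes.

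Between clones among KO-labelled arrays 1047 genes passed, against 599 probe sets with all of them tested, 567 with array weights and 382 to 1542 without 1 set. Among Control arrays 792 passed, against 477 probe sets with all of them tested, 1599 with array weights and 385 to 588 without 1 set. With replicate number as a block across clones, which the labels do not tie to a shared experiment (r of same-numbered deviations 0.51 among KO-labelled and 0.09 among Control arrays), the counts were 1927 among KO-labelled and 1330 among Control arrays, and no clone call of Mamdc2 or Pcdh7 changed.

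The Control difference of Pcdh7 was -1.06 (adjusted p = 0.0672) with all probe sets tested and -1.37 to -0.74 without 1 set; that of Mamdc2 was -1.20 to -0.32. The KO-labelled difference of Mamdc2 was -1.10 without the variance trend, with all probe sets tested and with array weights, where it did not pass, and -1.36 to -0.83 without 1 set. The difference in change passed for 2 genes, against 0 without the variance trend (304 unadjusted), 0 with all probe sets tested (776 probe sets unadjusted), 0 with no replicate block (178 unadjusted), 12 with centred arrays, 4 with array weights and 5 to 224 without 1 set; it passed for neither Mamdc2 nor Pcdh7 in any of these. Dusp5, which did not pass, ran from -0.0723 to 0.0149 without 1 set. Testing all probe sets raises the number of tests; the cause of the other moves was not tested. Without detection calls, signal over background is unknown, and 4 arrays a group limit the precision.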
